A study of Mus musculus with 7 samples.

Results

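HDAC1 peaks were described at 10 mouse genes of bone morphogenetic protein (BMP) signalling in the limb bud: the ligand genes Bmp2, Bmp4 and Bmp7, the antagonist genes Grem1 and Nog, the receptor genes Bmpr1a, Bmpr1b and Bmpr2, the pseudoreceptor gene Bambi, and Fmn1, the neighbour of Grem1. A peak was assigned to a gene when it overlapped the gene body with 20 kb added on each side (mm10, GENCODE M21), and 27 of the 15347 peaks in the list were assigned in this way, each to 1 gene. The list comes from ChIP-seq of 4 HDAC1 samples and 3 samples of input chromatin, made from pooled forelimb and hindlimb buds of wild-type Swiss Webster embryos at E11.5 (40 to 44 somites). The labels give 3 litters as the source, and Abcam ab7028 as the antibody. No genotype, treatment or stage was compared, all limb cell types were pooled, and the authors deposited 1 list of peak coordinates for all samples. The deposited list has no read number, height or value for a single sample, so it does not show the depth behind a peak, no replicate error can be given and no test was made. Enrichment and FDR of single peaks, which the study's supplementary data describe, were not used here. The order of the list was read as the rank of a peak, with rank 1 the first.

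HDAC1 is a histone deacetylase that removes acetyl groups from histones as part of corepressor complexes, and it is found at many active promoters as well as at repressed genes. BMP ligands are secreted dimers that bind a complex of type I receptors (BMPR1A, BMPR1B) and the type II receptor BMPR2. In this complex the type I receptors phosphorylate SMAD proteins that enter the nucleus. Gremlin 1 and Noggin bind the ligands and keep them from the receptors, and BAMBI is a receptor-like protein without a kinase domain that dampens the signal. In the limb bud, GREM1 in the posterior mesenchyme keeps BMP activity low so that SHH in the mesenchyme and FGFs in the apical ridge maintain each other, and enhancers that drive Grem1 in the limb lie within and around Fmn1, a gene for a formin that organises actin.

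All 10 genes had at least 1 HDAC1 peak in the window, against 58.9% of the 21851 protein-coding genes under the same rule. They also all had a peak in the region that begins 2 kb before and ends 1 kb after one of their own protein-coding transcription start sites (TSSs), against 44.1% of coding genes. In 8 of them a peak covered a coding TSS itself, against 32.8% of coding genes, and the exceptions were Bmp4 and Fmn1. The number of peaks in the window was 9 at Bmp7, 4 at Bmp2, 3 at Fmn1, 2 each at Bmp4, Nog, Bmpr2 and Bambi, and 1 each at Grem1, Bmpr1a and Bmpr1b. Thus 7 genes had 2 or more peaks, against 32.3% of coding genes, with peaks counted as listed, however close they stood. Of the 27 peaks, the 3 ligand genes held 15, the 3 receptor genes 4 and the 2 antagonist genes 3. The windows differ in length, from 41.7 kb at Nog to 429.0 kb at Fmn1, and longer windows can hold more peaks by their size alone. Per 100 kb of window there were 8.01 peaks at Bmp7, 7.89 at Bmp2, 0.699 at Fmn1 and 0.269 at Bmpr1b, and 1.42 over all coding genes. Short windows hold more peaks per length, with 2.36 per 100 kb over coding genes with windows of 40 to 60 kb, the range of Bmp2, 1.36 for 60 to 200 kb, that of Bmp7, and 0.476 for over 200 kb, that of Fmn1 and Bmpr1b. By this pooled density Bmp7, Bmp2 and Fmn1 were above windows of like length and Bmpr1b below them. By number of peaks, however, Fmn1 and Bmpr1b were in the common range. Of the 672 coding genes with windows over 300 kb, 26.9% had 3 peaks or more and 53.9% had 1 or none.

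The sequences under the peaks that covered a start differed in base composition from those under the intronic and intergenic peaks, and a few of each are shown. For the promoters, the bases just before the TSS are given on the strand of the gene, with capitals for each GGCGCC, a palindromic GC-rich element of the kind bound by SMAD proteins. The stretches are the 203 bases of the Grem1 peak that lie upstream of the TSS (chr2:113758647-113758849, minus strand), and the last 250 bases before the first TSS of Bmpr1a (chr14:34502688-34502937, minus strand) and of Bmpr2 (chr1:59763150-59763399, plus strand), each wholly under a peak.
Grem1: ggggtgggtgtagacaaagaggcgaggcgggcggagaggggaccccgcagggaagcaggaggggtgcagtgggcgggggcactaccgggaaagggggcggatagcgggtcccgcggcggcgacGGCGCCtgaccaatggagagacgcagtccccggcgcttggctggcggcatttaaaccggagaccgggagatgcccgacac
Bmpr1a: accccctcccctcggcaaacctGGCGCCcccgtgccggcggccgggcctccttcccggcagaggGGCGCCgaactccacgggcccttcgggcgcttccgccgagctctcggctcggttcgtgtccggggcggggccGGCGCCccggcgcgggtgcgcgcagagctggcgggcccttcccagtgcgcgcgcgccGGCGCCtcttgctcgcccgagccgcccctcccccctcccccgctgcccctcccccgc
Bmpr2: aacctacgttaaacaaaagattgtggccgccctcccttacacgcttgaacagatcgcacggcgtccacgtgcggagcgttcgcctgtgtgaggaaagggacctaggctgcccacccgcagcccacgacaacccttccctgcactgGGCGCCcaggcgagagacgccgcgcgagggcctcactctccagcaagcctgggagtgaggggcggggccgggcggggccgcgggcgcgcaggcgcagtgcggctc
The element occurred 4 times in the Bmpr1a stretch, which is 81.6% G and C, and once each in the Grem1 (70.9%) and Bmpr2 (68.8%) stretches.

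For peaks that cover no coding start, capitals mark each CG dinucleotide. The 3 peaks of Fmn1 are shown whole on the plus strand, namely the peak of rank 8687 (chr2:113440600-113440749), 315 bp upstream of the innermost coding TSS, the peak of rank 8767 in intron 16 (chr2:113674850-113675149) and the peak of rank 4590 in intron 18 (chr2:113693400-113693649). For Bmp4 the central 300 bases are given of the peak of rank 1769 (chr14:46388600-46388899, minus strand), which lies in intron 1 but counts as a TSS peak. For Bmp7 those of the best ranked intronic peak are given (chr2:172933900-172934199, minus strand). For Bmp2 those of the peak past its 3' end are given (chr2:133566275-133566574, plus strand). The peak beyond Nog is shown whole on the minus strand (chr11:89298050-89298199).
Fmn1 rank 8687: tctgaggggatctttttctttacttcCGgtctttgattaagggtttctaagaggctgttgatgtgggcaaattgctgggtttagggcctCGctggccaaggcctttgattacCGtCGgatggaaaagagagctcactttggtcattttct
Fmn1 rank 8767: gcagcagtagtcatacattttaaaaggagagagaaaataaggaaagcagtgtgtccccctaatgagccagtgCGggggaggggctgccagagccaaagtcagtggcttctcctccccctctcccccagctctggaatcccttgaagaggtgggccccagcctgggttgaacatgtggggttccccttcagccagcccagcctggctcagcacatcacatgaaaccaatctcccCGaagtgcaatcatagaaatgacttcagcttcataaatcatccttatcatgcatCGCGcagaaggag
Fmn1 rank 4590: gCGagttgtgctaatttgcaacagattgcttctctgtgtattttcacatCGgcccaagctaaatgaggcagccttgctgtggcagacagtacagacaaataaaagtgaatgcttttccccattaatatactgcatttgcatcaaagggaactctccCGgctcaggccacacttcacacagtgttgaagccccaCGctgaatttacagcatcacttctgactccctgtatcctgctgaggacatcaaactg
Bmp4 intron 1: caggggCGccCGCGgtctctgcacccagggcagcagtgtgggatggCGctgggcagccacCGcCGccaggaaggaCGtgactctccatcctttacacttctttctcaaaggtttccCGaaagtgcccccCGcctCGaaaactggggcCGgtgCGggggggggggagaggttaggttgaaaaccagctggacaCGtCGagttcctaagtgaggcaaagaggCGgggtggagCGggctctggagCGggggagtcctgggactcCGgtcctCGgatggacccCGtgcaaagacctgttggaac
Bmp7 intron 1: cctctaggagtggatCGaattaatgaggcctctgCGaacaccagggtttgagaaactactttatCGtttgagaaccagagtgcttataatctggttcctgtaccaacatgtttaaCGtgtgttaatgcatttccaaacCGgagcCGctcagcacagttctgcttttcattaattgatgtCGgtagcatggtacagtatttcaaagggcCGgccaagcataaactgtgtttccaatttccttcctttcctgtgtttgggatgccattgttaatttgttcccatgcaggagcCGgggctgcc
Bmp2 past the gene: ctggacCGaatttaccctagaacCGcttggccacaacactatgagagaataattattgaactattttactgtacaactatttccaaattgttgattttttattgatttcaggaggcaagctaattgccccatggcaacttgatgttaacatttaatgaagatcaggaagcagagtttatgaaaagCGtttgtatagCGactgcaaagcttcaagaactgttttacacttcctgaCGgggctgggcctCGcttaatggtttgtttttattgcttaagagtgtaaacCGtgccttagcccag
Nog past the gene: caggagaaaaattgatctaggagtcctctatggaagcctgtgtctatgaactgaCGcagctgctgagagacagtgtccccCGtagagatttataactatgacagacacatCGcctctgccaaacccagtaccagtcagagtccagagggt
Each Fmn1 peak held 4 CG dinucleotides, in 150, 300 and 250 bases in the order shown. The 300 bases from Bmp4 held 20 and those from Bmp7 held 9. These counts are not adjusted for the unequal lengths. The Bmp4 stretch also lies in an exon of Gm15222 on the opposite strand, and part of the Fmn1 peak of rank 8687 in an exon of Gm13966 on the opposite strand, both annotated as antisense RNAs.

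Bmp2 (chr2:133552159-133562885, plus strand) had 4 peaks. The first, of 2000 bp and rank 844, covered the TSS from 359 bp upstream to 1640 bp downstream (chr2:133551800-133553799). A 200 bp peak of rank 10061 followed in intron 1, and after a gap of 150 bp came a 600 bp peak of rank 5390 over exon 2, of which 350 bp were coding-transcript exon. These 3 peaks stand close together, with gaps of 200 and 150 bp. The last peak, of 450 bp and rank 9000, lay 3315 bp beyond the 3' end of the gene, 14.0 kb from the TSS.

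Beyond these 4 peaks, the surroundings of Bmp2 held no HDAC1 peak for a long way on both sides. The next peak was 672410 bp upstream, a 750 bp peak of rank 11707 over an exon of Lrrn4, and the next downstream was 1223 kb away at the TSS of Plcb1 (800 bp, rank 4066). The stretch between the flanking peaks measured 1906 kb and, besides Bmp2, it held the coding genes Fermt1, Hao1 and Tmx4, none with a peak. Of all coding genes, 9.16% had no peak outside the window up to 500 kb from the gene body, and Bmp2 was the single one of the 10 genes among them.

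Bmp4 (chr14:46383520-46390669, minus strand) had 2 long peaks, both within the gene. The first was the longest of the 27, with 2500 bp and rank 1769, and lay wholly in intron 1 (chr14:46387500-46389999). It began 670 bp downstream of the first coding TSS and 551 bp downstream of the second, so that neither was covered, and it counted as a TSS peak only because the TSS region reaches 1 kb into the gene. It covered a start of the antisense RNA Gm15222, so that binding at this start and binding within Bmp4 cannot be told apart here. The second peak (1600 bp, rank 3598) began 200 bp further on and spanned exons 2 and 3 with 505 bp of coding-transcript exon. Together the peaks covered 57.3% of the Bmp4 body, a larger share than in 99.1% of coding genes, whose median was 0.0%. The body is only 7.15 kb long, and the share was not set against genes of like length. Outside the window the nearest peak was 214.0 kb upstream, the first of a group of 3 intergenic peaks whose best rank was 3952. The gene Gm15217, whose body reaches into the window, had no peak there.

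Bmp7 (chr2:172868012-172940321, minus strand) carried the most peaks of the 10 genes, 9, a number reached by 0.471% of coding genes. Among the 2408 coding genes with windows of 90 to 140 kb, 7 (0.291%) had 9 or more. Gaps of only 100, 650, 200, 150 and 50 bp separated several of the Bmp7 peaks. The count would be lower with close peaks merged, and these shares were not recomputed that way. The first peak covered the TSS from 628 bp upstream to 1471 bp downstream (chr2:172938850-172940949) and had a length of 2100 bp and rank 752, the best rank of the 27. Another 7 peaks lay in intron 1, which is 23.0 kb long, and the last lay 213 bp beyond the 3' end of the gene (300 bp, rank 7379). The 7 peaks nearest to the TSS fell within 7450 bp, of which 4350 bp (58.4%) were under a peak.

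The intronic peaks of Bmp7 were mostly short and late in the list. Going into the gene, their lengths were 700, 250, 200, 300, 600, 200 and 300 bp and their ranks 10248, 15308, 11857, 14804, 1855, 12033 and 11118. The 700 bp peak next to the TSS peak was long for its place, since 90.7% of the 1000 peaks nearest to it in rank were shorter. The 600 bp peak of rank 1855 (chr2:172933750-172934349) began 5972 bp from the TSS and was the best placed peak outside a TSS region among the 27. It was short for that place, with 83.4% of its neighbours in rank longer. The peak of rank 15308 was close to the end of the list of 15347.

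**Figure D1:**
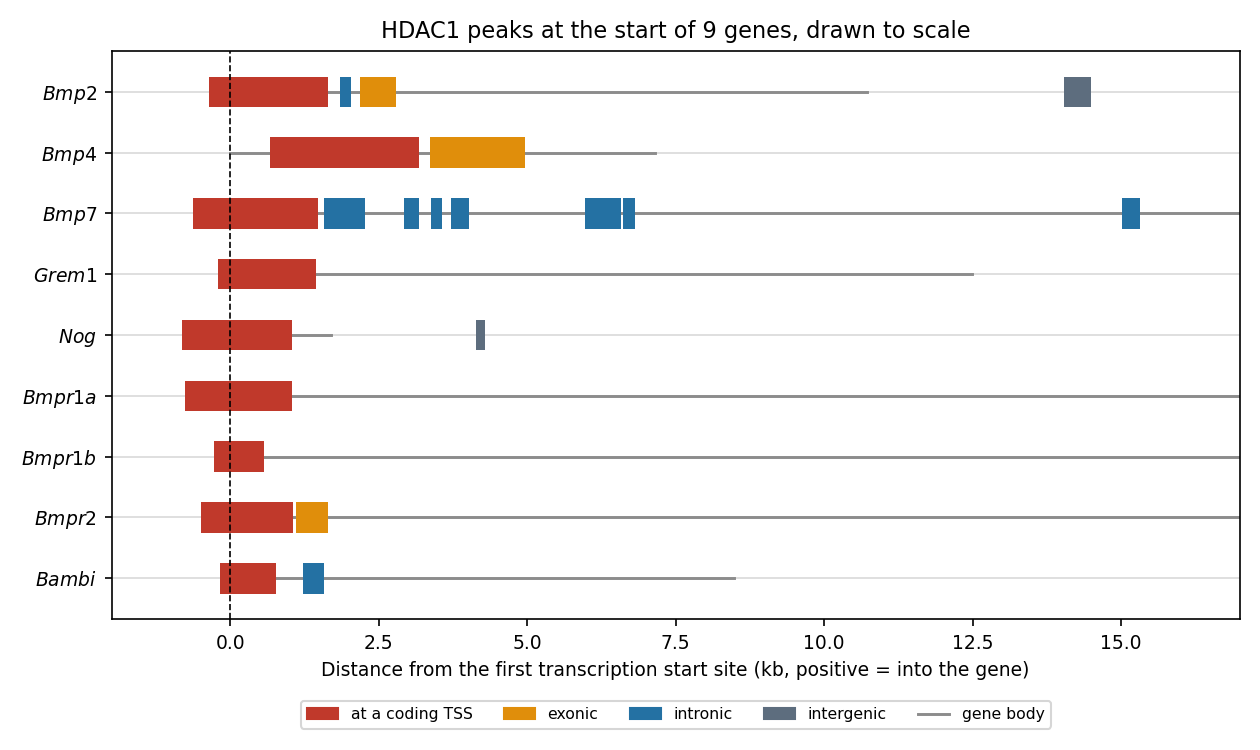
HDAC1 peaks around the first coding TSS (dashed line at 0) of 9 of the 10 genes, with the distance into the gene in kb on the x axis, boxes for peaks coloured by position and grey lines for gene bodies. In 8 genes a red box crosses the TSS, the Bmp4 box begins 670 bp past it, and Bmp7 shows its row of short intronic peaks; the Bmp7 peak beyond the gene end, 72.5 kb from the TSS, is off the scale.

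Grem1 (chr2:113746164-113758646, minus strand) had a single peak, of 1650 bp and rank 5748 (chr2:113757200-113758849), from 203 bp upstream of the TSS to 1446 bp downstream across exon 1 into intron 1. It was long for its rank, since 99.1% of the 1000 peaks nearest in rank were shorter and their median length was 550 bp. It lay mostly downstream, with 87.7% of its bases at or after the TSS, the highest share of the 8 genes with a covered first TSS (55.8 to 87.7%, median 68.9%). Over all 6151 coding genes with a covered first TSS the median share was 70.9%, so most peaks of this kind extend into the gene. Of the neighbouring gene Scg5, whose body reaches into the Grem1 window, no peak fell in that window.

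Nog (chr11:89300638-89302332, minus strand), a gene with 1 exon, had a peak of 1850 bp and rank 2510 from 817 bp upstream to 1032 bp downstream of the TSS (chr11:89301300-89303149). It covered 60.9% of the short gene body, and also a start of the noncoding RNA Gm2018. A 150 bp peak of rank 13918 lay 2439 bp beyond the 3' end, and 84.8% of the peaks nearest to it in rank were longer. Apart from these, no peak was listed within 500 kb upstream, and the nearest downstream was at the TSS of Dgke, 240 kb away.

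Fmn1 (chr2:113327736-113716767, plus strand) differed from the other 9 genes in having no peak near its first start. The first coding TSS had its nearest peak 110287 bp away, outside the gene on the upstream side, at Ryr3. Its 3 peaks were all short, with 150, 300 and 250 bp and ranks 8687, 8767 and 4590 along the gene. The peak of 150 bp put Fmn1 among the genes with a peak at an own TSS, as it ended 315 bp before the TSS of a shorter transcript 113328 bp into the gene. In the order of the 9630 coding genes with a peak at an own TSS, by best rank, it was number 7141 (74.2%), the last of the 10 genes.

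Between the first Fmn1 TSS and the first peak there were 113 kb without a peak, and 234 kb between the first and the second. The remaining peaks lay towards Grem1, the peak of rank 8767 at 83.5 kb and that of rank 4590 at 65.0 kb from the Grem1 TSS. GRE1, a Grem1 limb enhancer named in the study, lies by its coordinates in the 234 kb without a peak. The study mapped acetylation at GRE1 in forelimbs at an earlier stage than that of this list. Whether HDAC1 is at GRE1 below the peak threshold was not tested. The peak of rank 4590 was placed higher than the Grem1 promoter peak itself, although it was 250 bp long. Among the 1000 peaks nearest to it in rank, 97.7% were longer and the median was 700 bp. The bodies of Fmn1 and Grem1, which are transcribed towards each other, end 29.4 kb apart, and no peak lay in this gap. A further Fmn1 start in RefSeq, with its promoter window at chr2:113684840-113685139, lies between these peaks and had none.

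**Figure D2:**
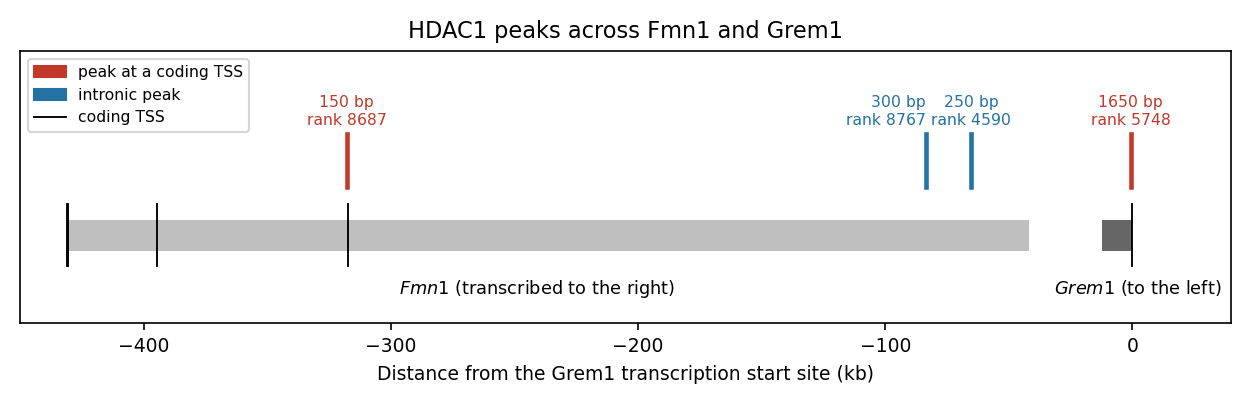
HDAC1 peaks (coloured bars, with length and rank) across Fmn1 (light grey) and Grem1 (dark grey) by distance from the Grem1 TSS in kb, with coding TSSs as black lines; bar widths are not to scale. Of the 3 peaks in Fmn1, 2 lie 83.5 and 65.0 kb from the Grem1 TSS, and none lies in the 29.4 kb between the genes.

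The receptor genes had peaks at their starts and almost nowhere else in bodies of 92.0 to 332 kb. Bmpr2 (chr1:59763400-59879014, plus strand) had a peak of 1550 bp and rank 1732 from 500 bp upstream to 1049 bp downstream of the TSS, and 50 bp further on a 550 bp peak of rank 7028 over the end of exon 1 and the beginning of intron 1. Bmpr1a (chr14:34410734-34502687, minus strand) had 1 peak of 1800 bp and rank 2729, from 762 bp upstream to 1037 bp downstream of its first TSS, and it had the highest observed/expected CpG ratio of the 27 (1.04). A start of the antisense RNA Gm17110 lay under the same peak. Bmpr1b (chr3:141837136-142169425, minus strand) had 1 peak of 850 bp and rank 6232, which covered its first and second TSSs, 212 bp apart.

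Inner starts of the receptor genes were not covered. The second coding TSS of Bmpr1a, 42131 bp into the gene, and those of Bmpr1b, 187161 and 237902 bp into it, had no peak nearer than the one at the first start. Of 672 coding genes with windows over 300 kb, 53.9% had 1 peak or none, so the single peak of the long Bmpr1b gene was in the common range. Outside the windows, the nearest peaks were an 850 bp peak of rank 1616 in an intron of Ldb3, 46.0 kb upstream of Bmpr1a, and a 700 bp intergenic peak of rank 3701, 68.8 kb upstream of Bmpr1b, both placed higher in the list than the peak at the gene's own start. For Bmpr2 the nearest was at the TSS of Fam117b, 33.5 kb downstream (1350 bp, rank 471). The genes 9230112D13Rik and Mmrn2 reach into the Bmpr1a window and Unc5c into that of Bmpr1b, without a peak there.

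Bambi (chr18:3507923-3516404, plus strand) had a peak of 950 bp and rank 4866 from 173 bp upstream to 776 bp downstream of the TSS, and a 350 bp peak of rank 11358 in intron 1, 450 bp further on. Nothing else was listed up to 124 kb upstream, where a peak lay at Cul2, or within 500 kb downstream. Across the 10 genes, 6 had 2 or more peaks that overlapped the gene body itself, namely Bmp2, Bmp4, Bmp7, Fmn1, Bmpr2 and Bambi, against 10.1% of coding genes. At Bmp2, Bmp4, Bmpr2 and Bambi, neighbouring peaks over the body stood no more than 450 bp apart. If peaks no more than 1000 bp apart are joined, only Bmp7 and Fmn1 keep several peaks over the body.

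The peaks at the members' starts were mostly long and placed high, but those of Fmn1, Bmpr1b and Bambi were under 1000 bp. For each gene, the best placed peak at an own TSS had a median length of 1725 bp and a median rank of 2619 over the 10 genes, against 650 bp and 5174 over the 9630 coding genes with such a peak. It measured 1000 bp or more in 7 of the 10 genes (27.1% of coding genes) and fell within the first 3836 ranks in 6 (38.3%). In the order of all genes by this peak, Bmp7 came at number 754 (7.83%), Bmp2 at 843 (8.75%), Bmpr2 at 1696, Bmp4 at 1733, Nog at 2444 and Bmpr1a at 2662, while Bambi (4580), Grem1 (5268), Bmpr1b (5593) and Fmn1 (7141) stood in the middle or later. No spread can be attached to these places, so neighbours such as Bmp7 and Bmp2 or Bmpr2 and Bmp4 cannot be ordered with confidence.

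**Figure D3:**
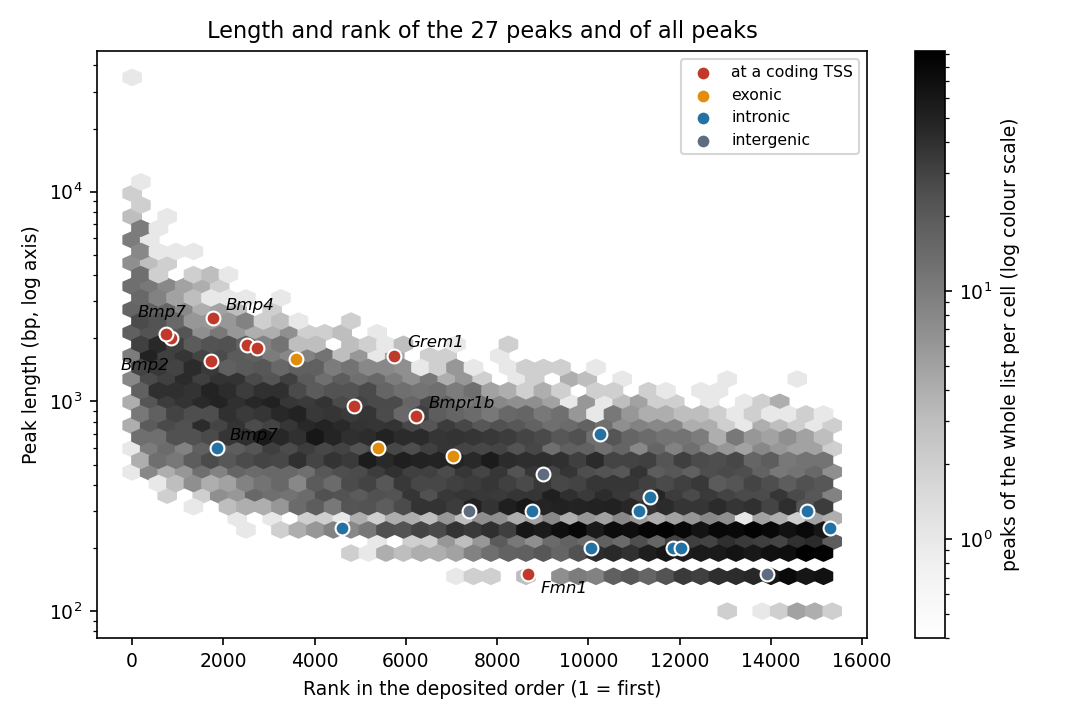
Length in bp (log axis) against rank for the 27 peaks (coloured by position) over the density of all 15347 peaks (grey, log colour scale). The TSS peaks of Bmp2, Bmp4 and Bmp7 lie at 2000 bp or more in the first 1769 ranks, Grem1 lies at the upper edge for its rank (1650 bp, rank 5748) and Fmn1 at the lower edge (150 bp, rank 8687).

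By position, 10 of the 27 peaks (37.0%, 95% Wilson interval 21.5 to 55.8%) lay in a TSS region, each that of the member itself, whereas 70.1% of all peaks in the list did. The other 17 were distal, with 11 intronic (40.7%, against 11.3% of all peaks), 3 exonic and 3 intergenic. The interval covers counting error over peaks only, and peaks of 1 gene are not independent. Bmp7 alone gave 8 of the 17 distal peaks, and without it 9 of 18 peaks (50%, interval 29.0 to 71.0%) were at a TSS. It also gave 7 of the 11 intronic peaks, and without Bmp7 the intronic share was 4 of 18 (22.2%). Many of the distal peaks lay just beyond the TSS region, since with a TSS region widened to 5 kb in each direction the share was 74.1% for these genes and 77.9% for all peaks. The median rank was 7028 for the 27 peaks and 7674 for the list, and 8 of them fell within the first 3836 ranks, 7 in those up to 7673, 7 in those up to 11510 and 5 after that. Distal peaks had a median length of 300 bp, the same as distal peaks of the whole list, and a median rank of 10061 (10283 in the list).

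Base composition separated the peaks along the same line. The TSS peaks had a median GC content of 65.3% (65.4% for all TSS peaks) and a CpG ratio of 0.80 (0.82), and the distal peaks 50.8% (52.5%) and 0.33 (0.37). The TSS-class peak of Fmn1, which covers no start, had 46.7% GC and lay with the distal peaks, as the plot of base composition shows. An exception on the other side was the peak over exon 2 of Bmp2, with 68.2% GC. Another was the 200 bp Bmp7 peak of rank 12033, with a CpG ratio of 0.91 at 45.0% GC.

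**Figure D4:**
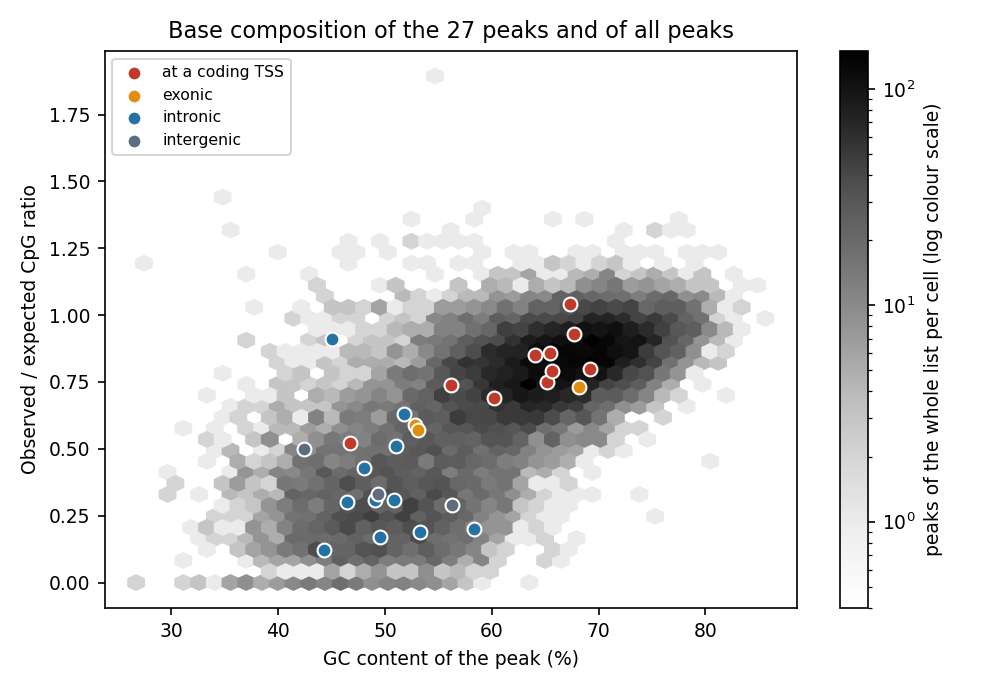
Observed/expected CpG ratio against GC content in percent for the 27 peaks (coloured by position) over the density of all peaks of the list (grey, log colour scale). The TSS peaks other than that of Fmn1 lie between 56.2 and 69.2% GC at CpG ratios of 0.69 to 1.04, and most intronic and intergenic peaks lie below them on both axes.

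Exact matches to short elements were counted on both strands of each peak. GACCACCCA, the core consensus of GLI factors, was in none of the 27 peaks and in 0.645% of all peaks, and the palindrome GTCTAGAC bound by SMAD proteins was in none and in 0.541%. Both are so rare in the list that their absence from 27 peaks cannot tell these genes from the others. GGCGCC was in 10 of the 27 (37.0%, against 39.0% of all peaks), which is near the background. It was in 9 of the 10 TSS peaks, all but that of Fmn1, against 49.0% of all TSS peaks, but long peaks hold a short element more often. Among peaks of 850 to 2500 bp it was in 9 of 10 at these genes and in 72.4% of the list, among those of 450 to 700 bp in 0 of 5 and 43.0%, and among those of 150 to 350 bp in 1 of 12 and 14.5%. The TSS peak of Bmpr1a had 5 copies, that of Bmp7 4, and those of Bmp2 and Bmpr2 3 each. The single match in a peak of 150 to 350 bp was in the intron 1 peak of Bmp7 at rank 14804. A match is a run of letters and does not show that a factor was bound.

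Further from the starts, the number of peaks varied widely. Between 100 and 500 kb from a coding TSS of the gene there were 13 peaks at Bmp4, 10 at Bmpr2, 8 at Bmp7, 7 at Bmpr1a, 6 at Bmpr1b, 5 at Fmn1, 4 at Nog, 2 at Grem1, 2 at Bambi and 0 at Bmp2, with a median of 7 over all coding genes. Of the 13 near Bmp4, 8 were distal, and of the 8 near Bmp7, 5 were, while the median coding gene had 1 distal peak at this range. All 4 at Nog and both at Bambi were at the TSSs of other genes. The 5 at Fmn1 include its own intronic peaks of ranks 8767 and 4590 and the Grem1 promoter peak, and the 2 at Grem1 include the Fmn1 peak of rank 8687. Whether a remote peak acts on the gene it was counted for is not given by its position.

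**Figure D5:**
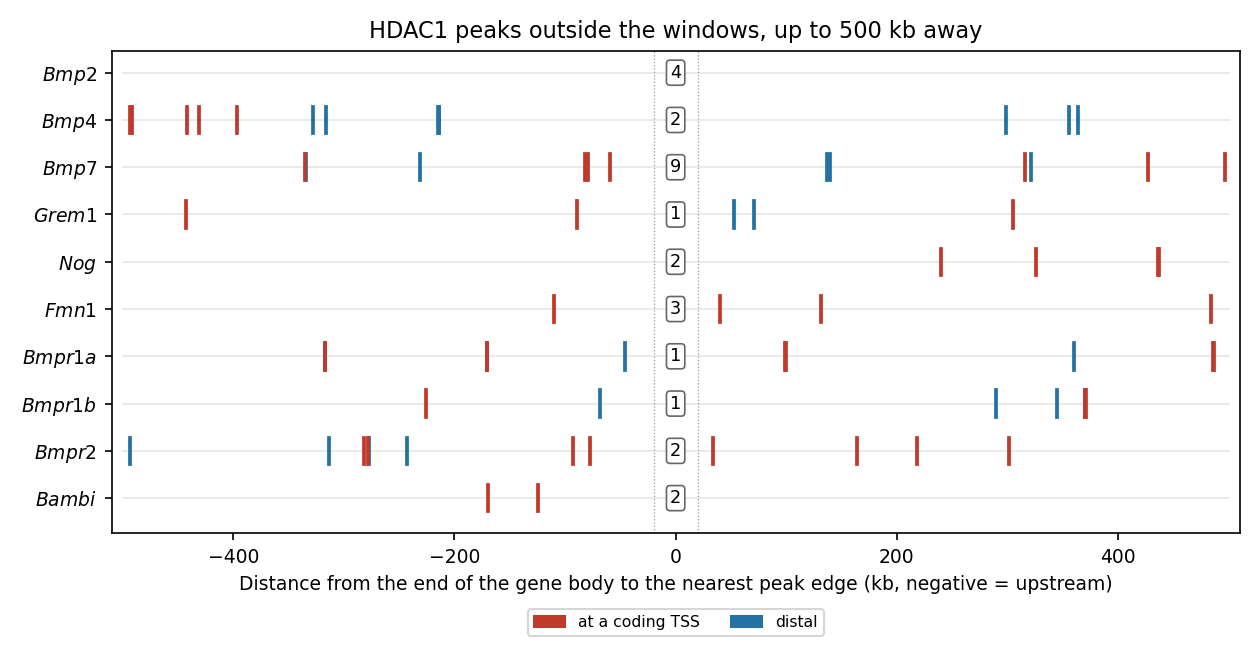
HDAC1 peaks outside the windows, up to 500 kb from each gene body, with the distance in kb on the x axis (negative upstream on the strand of the gene), red for peaks at a coding TSS and blue for distal ones; the boxed number is the count of peaks in the window, whose flanks end at the dotted lines. The row of Bmp2 is empty outside its 4 peaks, and 2 distal peaks within Fmn1 stand 52.5 and 71.0 kb from the Grem1 body.

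The other genes of the pathway, a list of 29 ligand, receptor and antagonist genes, had a peak in the window in 24 cases and at an own TSS in 18. By role, 7 of 9 ligand genes, 5 of 6 receptor or co-receptor genes and 12 of 14 antagonist genes had a peak. Bmp3, Bmp5, the type I receptor gene Acvrl1 and the antagonist genes Chrdl1 and Cer1 had none. Gdf5, a ligand gene of the joint region, and Chrd, for the antagonist chordin, had 3 peaks each but none at an own TSS. The best placed peak of the list was at Bmper, which encodes a BMP-binding secreted protein (1350 bp, rank 445), ahead of every peak of the 10 genes. Of the 57 peaks of this list, 68.4% were at a coding TSS (interval 55.5 to 79.0%), and their median length was 450 bp.

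Id genes are direct targets of BMP signalling and Smad genes encode its transmitters and inhibitors. All 12 Id and Smad genes of the list had a peak at an own TSS, and over them the median of the best rank at an own TSS was 1257, against 2619 for the 10 genes. The best was at Smad7, for an inhibitory SMAD (6600 bp, rank 28). These best placed peaks measured 300 to 6600 bp and most were over 1000 bp, so long peaks at starts were not particular to the 10 genes. Among 8 FGF ligand and receptor genes of the limb, 7 had a peak in the window and 6 at an own TSS, and Fgf4 had none. The median best rank at an own TSS was 2983, and 4572 without Fgfr2. The window of Fgfr2 is 3001 kb long in this annotation and held 28 of the 44 peaks of that list, so its counts were not set against the 10 genes by number of peaks. These lists are of unequal size and were not tested against each other.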

How the data were processed

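HDAC1 ChIP-seq was made by the authors from pooled E11.5 limb buds (4 HDAC1 ChIP and 3 input samples). Per the labels, reads were aligned with Bowtie2 2.2.5 to mm10, and per the study's methods peaks were called with CisGenome at a false discovery rate under 0.05. The deposited file holds only chromosome, start and end of each peak, in ranked order, for all samples together. Positions lie on a 50 bp grid and were read as 1-based with both ends included, which may be off by 1 bp.

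Peaks were intersected (1 bp or more) with gene bodies and TSSs of protein-coding transcripts of the GENCODE M21 basic annotation, and sequence was read from the RefSeq GRCm38.p6 genome, the same assembly as mm10. RefSeq promoter entries matched 6 of the 10 genes (Bmp4, Grem1, Fmn1, Bmpr1a, Bmpr1b and Bmpr2). A peak at a coding TSS overlapped the region from 2 kb before it to 1 kb after it, and all others were distal. The 10 genes and the other lists were chosen by role with earlier results of these data known, and 1 gene of the other lists is not reported here. All 10 genes were named whatever their values, with genes reaching into their windows and, from the other lists, genes without a peak or with the best placed one; Gdf5, Chrd and genes at flanking peaks were named after their values were seen. Intervals printed beside a share are 95% Wilson intervals, and the other shares are given without one. Overlap code was tested on simulated intervals. Analyses ran in Python 3.11.15 with scipy 1.17.1, and figures were drawn with matplotlib 3.10.9.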

Additional observations from a re-analysis of the deposited data

How the results depend on the processing

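No paired analysis was possible because the list gives 1 set of coordinates for all samples and no value per replicate, and for the same reason no value without a given sample exists. Weaker sites below the peak threshold are not in the list, so a stretch without a peak is not a stretch without HDAC1. Under 13 alternative settings, 70 of 80 recomputed values stayed within 1.5 times of the count or inside the interval of the share or median. All 10 genes kept a peak in the window in each of the 10 settings that recomputed it, and at least 9 kept a peak at an own TSS. Many of the 80 values were fixed in advance. Wider flanks, merging and wider TSS definitions cannot take a window peak from a gene. Smaller flanks cannot here, as each gene has a peak over its body. Wider TSS definitions also leave the number, length and rank of window peaks unchanged. Using only the first 7673 peaks can remove peaks, and left 10 genes with a window peak and 9 with one at an own TSS. Requiring 50% of a peak inside the window or TSS region gave the same.

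With the first 7673 peaks of the list alone, 15 peaks were in the windows and the share at a coding TSS was 60% (82.3% of all peaks). Merging peaks no more than 1000 bp apart left 17 peaks, 58.8% at a TSS (72.3% of all), and a TSS region of 5 kb on both sides gave 74.1% (77.9% of all). The lower share at a TSS than in the whole list thus shrank to a few percentage points under the wider TSS region. The share of coding genes with a peak in the window moved with the flank, from 44.3% with none to 49.9% at 5 kb, 69.0% at 50 kb and 76.9% at 100 kb, and was 43.4% with the first 7673 peaks. Merging also joins the peaks of Bmp4, of Bmpr2 and of Bambi into a single peak per gene, joins those over the Bmp2 body, and lowers the count at Bmp7. The numbers of genes with several peaks fall with it, and their shares over coding genes were not recomputed. Leaving out Bmp7, chosen after seeing the data, gave 18 peaks with a median length of 725 bp.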
